A study of Homo sapiens with 6 samples.

Results

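The mitochondrial ribosomal protein genes were taken as every protein-coding row of the deposited gene table whose name starts with MRPL or MRPS followed by a digit. The rule gave 78 of 58735 genes, 49 named MRPL for the large subunit and 29 named MRPS for the small subunit. All 78 have the same start and end as in GENCODE release 29 on GRCh38 (hg38). The study put an EGLN3 expression plasmid into NCI-N87, a human gastric cancer cell line, and sequenced bulk RNA. There were 2 groups. The 3 EGLN3 libraries came from cells given PLVX-IRES-Puro-EGLN3, and the 3 control libraries from cells given the empty vector PLVX-IRES-Puro. Both groups share the vector backbone and the 7 days of puromycin selection, and no library of untransfected cells is among them. The time with the plasmid is labelled as 1 day, except for EGLN3 replicate 3, which is labelled as 5 days. The labels do not say whether a culture was a pool or 1 clone, or whether replicates were separate cultures, so p-values measure the spread between these libraries only.

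The mitochondrial ribosome translates the few proteins that the mitochondrial genome encodes, all of them subunits of the respiratory chain and ATP synthase. Its RNAs come from mitochondrial DNA, while every one of its proteins is encoded in the nucleus, made in the cytosol and imported. Some of these proteins have bacterial homologues, and the others are found in mitochondria alone. EGLN3 (PHD3) is an oxygen-dependent prolyl hydroxylase best known for acting on the HIF alpha subunits.

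Library totals ran from 15157265 to 16531328 counts with EGLN3 and from 15948514 to 16767383 counts in control. The vector showed in every EGLN3 library, with 7298, 27674 and 27494 EGLN3 counts, against 10, 11 and 9 in control. The line's epithelial markers (CDH1, EPCAM, KRT8, KRT18, KRT19, ERBB2 and CLDN4) were all 7 above 1 FPKM and summed to 6685 to 12360 FPKM with EGLN3 and 7754 to 10470 FPKM in control. Fibroblast markers (0 of 5 above 1 FPKM) summed to 0.404 to 0.469 FPKM with EGLN3 and 0.478 to 0.565 FPKM in control, and COL1A2 and LUM were at 0 in every library. The line's own markers were thus abundant, and the fibroblast genes were at or near 0. Endothelial markers (0 of 3) summed to 0.0453 to 0.0709 FPKM with EGLN3 and 0.0799 to 0.120 FPKM in control. Of the 4 leukocyte markers, CD14 alone passed 1 FPKM, and the sums were 0.904 to 2.06 FPKM with EGLN3 and 1.16 to 1.38 FPKM in control.

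The members were well above the typical gene. Their median level was 21.2 FPKM (reads scaled by library size and by gene length, so that levels of different genes can be compared), against 4.06 FPKM over all tested genes. The median was 21.95 FPKM for the large subunit genes and 14.8 FPKM for the small subunit genes. Among the large subunit genes MRPL14 (chr6:44113454-44127457, minus strand), a conserved protein at the subunit interface, averaged 92.5 ± 46.3 FPKM with EGLN3 and 109.4 ± 27.8 FPKM in control (SD, n = 3 each). MRPL37, a mitochondria-specific large subunit protein, averaged 67.9 ± 16.7 FPKM with EGLN3 and 76.5 ± 9.44 FPKM in control (SD, n = 3 each). For both genes the group means lay within 1 SD of each other. The highest small subunit genes were MRPS34 (chr16:1771890-1773155), a mitochondria-specific protein of the small subunit, with 126.1 ± 61.4 FPKM with EGLN3 and 139.4 ± 35.8 FPKM in control, and MRPS26, with 70.8 ± 34.4 FPKM with EGLN3 and 79.9 ± 19.6 FPKM in control (SD, n = 3 each).

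At the low end, the mitochondria-specific large subunit genes MRPL38 and MRPL46 averaged 1.45 and 1.92 FPKM over the 6 libraries. MRPS33 averaged 4.33 FPKM. The lowest member was MRPS24, the homologue of bacterial S3, with 2, 4 and 6 counts in EGLN3 libraries, against 3, 10 and 13 counts in control libraries. It alone failed the filter on low counts, which left 77 members among 15726 tested genes. MRPS24 shares 23.2% of its exonic bases with the readthrough gene URGCP-MRPS24, which had 0 counts in every library. Counting rules can drop reads that fall in 2 genes, so its level is uncertain. FPKM divides by the summed length of all annotated exons, which for MRPL42 is 16393 bases against a longest coding sequence of 465 bases. MRPL42 is listed at 4.20 FPKM and yet had 60.3 to 79.7 CPM (counts scaled by library size, with TMM factors) in the 6 libraries.

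The first question was whether the EGLN3 vector changed the members' levels, and the EGLN3 and control libraries overlapped. Their summed level was 6462, 4160 and 3689 CPM in EGLN3 libraries, against 3924, 5113 and 5599 CPM in control libraries. EGLN3 replicate 1 was the highest library and EGLN3 replicate 3 the lowest, so the control libraries lay between them. The means were 4771 ± 1484 CPM with EGLN3 and 4878 ± 861.7 CPM in control (SD, n = 3 each). In bulk RNA a smaller share of cells expressing a gene and less of its RNA per cell cannot be told apart.

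By edgeR's quasi-likelihood test with Benjamini-Hochberg adjustment, 0 of 77 members passed an adjusted p of 0.05, where 0.00636% of all tested genes did, which is EGLN3 itself. The smallest adjusted p of a member was 1 and the smallest unadjusted p was 0.12. Thus 0 of 77 members had an unadjusted edgeR p under 0.05. Over all tested genes it was 174 of 15726, which is a small share as well. DESeq2 and limma on log2 FPKM also called 0 members, and DESeq2 gave 0 members an unadjusted p under 0.05. The log2 fold change of EGLN3 over control was above 0 for 32 of 77 members (41.6%), against 52.2% of all tested genes. Its median was -0.016 over the members and 0.010 over all tested genes, with a middle range (lower to upper quartile) of -0.076 to 0.063 for the members. The median SE of a single member's log2 fold change was 0.25, which does not measure the spread of the median over members. With 1 library left out, the median over members ran from -0.285 to 0.12.

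No member separated the groups. The CPM ranges of EGLN3 and control overlapped in all 77, whereas 2.64% of all tested genes had every EGLN3 library above every control library and 3.62% had every one below. The individual log2 fold changes ran from -0.30 for MRPL52 to 0.32 for MRPL53.

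**Figure D1:**
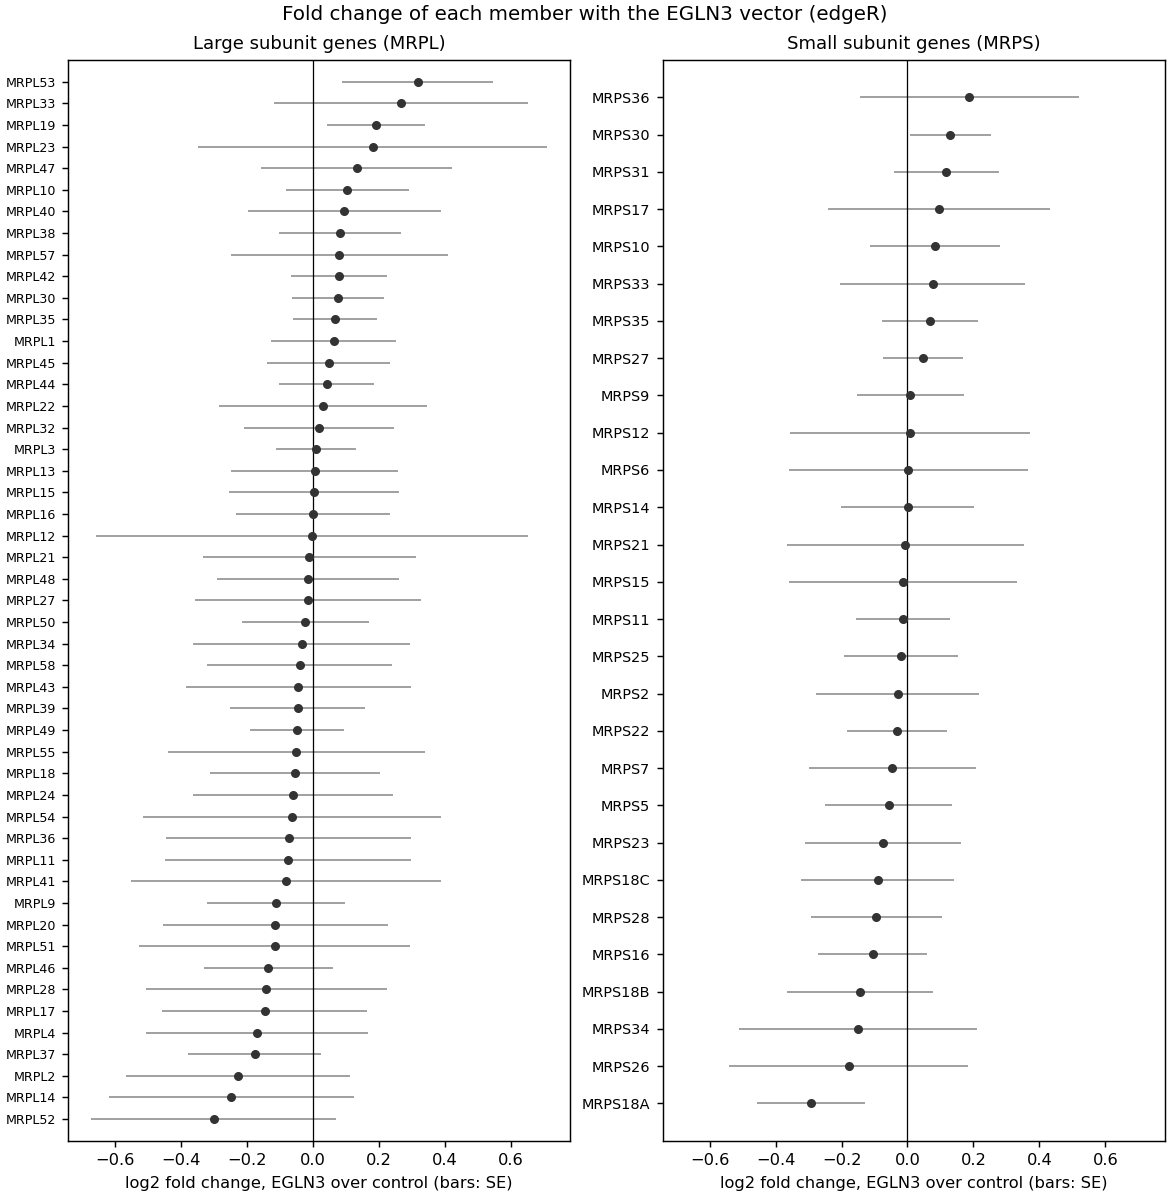
Log2 fold change of EGLN3 over control for each of the 77 tested members, 49 MRPL on the left and 28 MRPS on the right, sorted within each panel. Points are edgeR estimates and bars 1 SE (n = 3 libraries each); the points lie between -0.30 and 0.32 and 0 of them passed the adjusted threshold.

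MRPL53, a small mitochondria-specific protein of the large subunit, had 9.96, 6.64 and 6.43 CPM in EGLN3 libraries, against 5.24, 6.32 and 6.90 CPM in control libraries. The log2 fold change came to 0.32 ± 0.23 SE, with an unadjusted edgeR p of 0.21. EGLN3 replicate 1 was above all others and the remaining values overlapped. The gene shares 45.2% of its exonic bases with CCDC142 on the same strand, so part of its signal could not be assigned by sequence position alone. MRPS18A (chr6:43671303-43687791, minus strand) had 28.6, 22.3 and 21.6 CPM in EGLN3 libraries, against 26.1, 31.0 and 31.6 CPM in control libraries. Here it came to -0.29 ± 0.16 SE, and the unadjusted edgeR p of 0.12 was the smallest of the members. MRPS18A overlaps RSPH9 on the opposite strand over 47.0% of its exonic bases, and RSPH9 held 16, 9 and 15 counts with EGLN3 and 20, 10 and 17 counts in control.

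The other members with the smallest unadjusted p overlapped in the same way. MRPL19, whose bacterial homologue sits at the subunit interface, had 53.5, 49.4 and 65.6 CPM in EGLN3 libraries, against 51.1, 48.7 and 47.8 CPM in control libraries. EGLN3 replicate 3 was the high one. MRPL37 had 221.6, 160.5 and 141.3 CPM in EGLN3 libraries, against 170.2, 209.5 and 212.2 CPM in control libraries, so the EGLN3 libraries reached both beyond and below the control range. MRPS30 had 93.5, 80.4 and 86.3 CPM in EGLN3 libraries, against 76.9, 80.8 and 80.2 CPM in control libraries, with a single EGLN3 library inside the control range. MRPS31 had 26.5, 23.6 and 21.5 CPM in EGLN3 libraries, against 19.8, 20.4 and 25.7 CPM in control libraries.

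Both subunits had medians close to 0 in the vector comparison. The median log2 fold change was -0.016 for the 49 large subunit genes, with 20 above 0, and -0.014 for the 28 tested small subunit genes, with 12 above 0. The difference of these medians, large minus small, was -0.002. Symbols do not always follow structure. In the assembled human mitochondrial ribosome MRPS30 and MRPS18A sit in the large subunit, and MRPS36 is now known as a component of the 2-oxoglutarate dehydrogenase complex. Placing the genes by structure gave 51 large and 26 small subunit genes and left the difference at -0.002. For the 44 members numbered as bacterial homologues (MRPL up to 36 and MRPS up to 21) the median was -0.013 on the same scale, and the 33 tested members with higher numbers had -0.023.

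The balance of the subunits moved slightly between libraries of the same group. Summed FPKM of large over small subunit genes was 1.85, 1.76 and 1.71 in EGLN3 libraries, against 1.72, 1.77 and 1.81 in control libraries. EGLN3 replicate 1 had the largest ratio and EGLN3 replicate 3 the smallest. Per library, the median deviation of the large subunit genes from their own means, minus that of the small subunit genes, was 0.17, -0.03 and -0.05 (log2 CPM) with EGLN3, against -0.09, -0.03 and 0.07 in control. The groups overlapped in both measures.

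The largest differences among the members were between libraries of 1 group. To describe them without using the members, a library axis was computed as the first principal component of log2 CPM over all other tested genes, which carried 69.9% of their variance. The libraries lay at 59.2, -23.2 and -45.7 for EGLN3 replicates 1, 2 and 3, against -36.1, 11.5 and 34.4 for control replicates 1, 2 and 3. The groups overlapped along it, with EGLN3 replicates at both ends. EGLN3 replicate 1 had the fewest EGLN3 counts of its group and EGLN3 replicate 3 the longer labelled time with the plasmid, and the part of either in the libraries' order was not tested. The members' share of all counts followed the same order, at 0.593%, 0.437% and 0.390% with EGLN3, against 0.402%, 0.502% and 0.541% in control.

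Of 77 members, 74 correlated positively with this axis over the 6 libraries, where 50% of all tested genes did. A Pearson r of at least 0.9 was reached by 61 of 77 members, against 20.2% of all tested genes. The 6 libraries and their depth are shared by all genes, so these are descriptions without a p. By subunit, 46 of 49 large and 28 of 28 small subunit genes were positive, and 40 large and 21 small subunit genes reached 0.9. EGLN3 replicate 1 held the highest value of 71 members (92.2%), against 31.6% of all tested genes, and EGLN3 replicate 3 held the lowest of 44. The median ratio of a member's highest to its lowest library was 1.76.

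**Figure D2:**
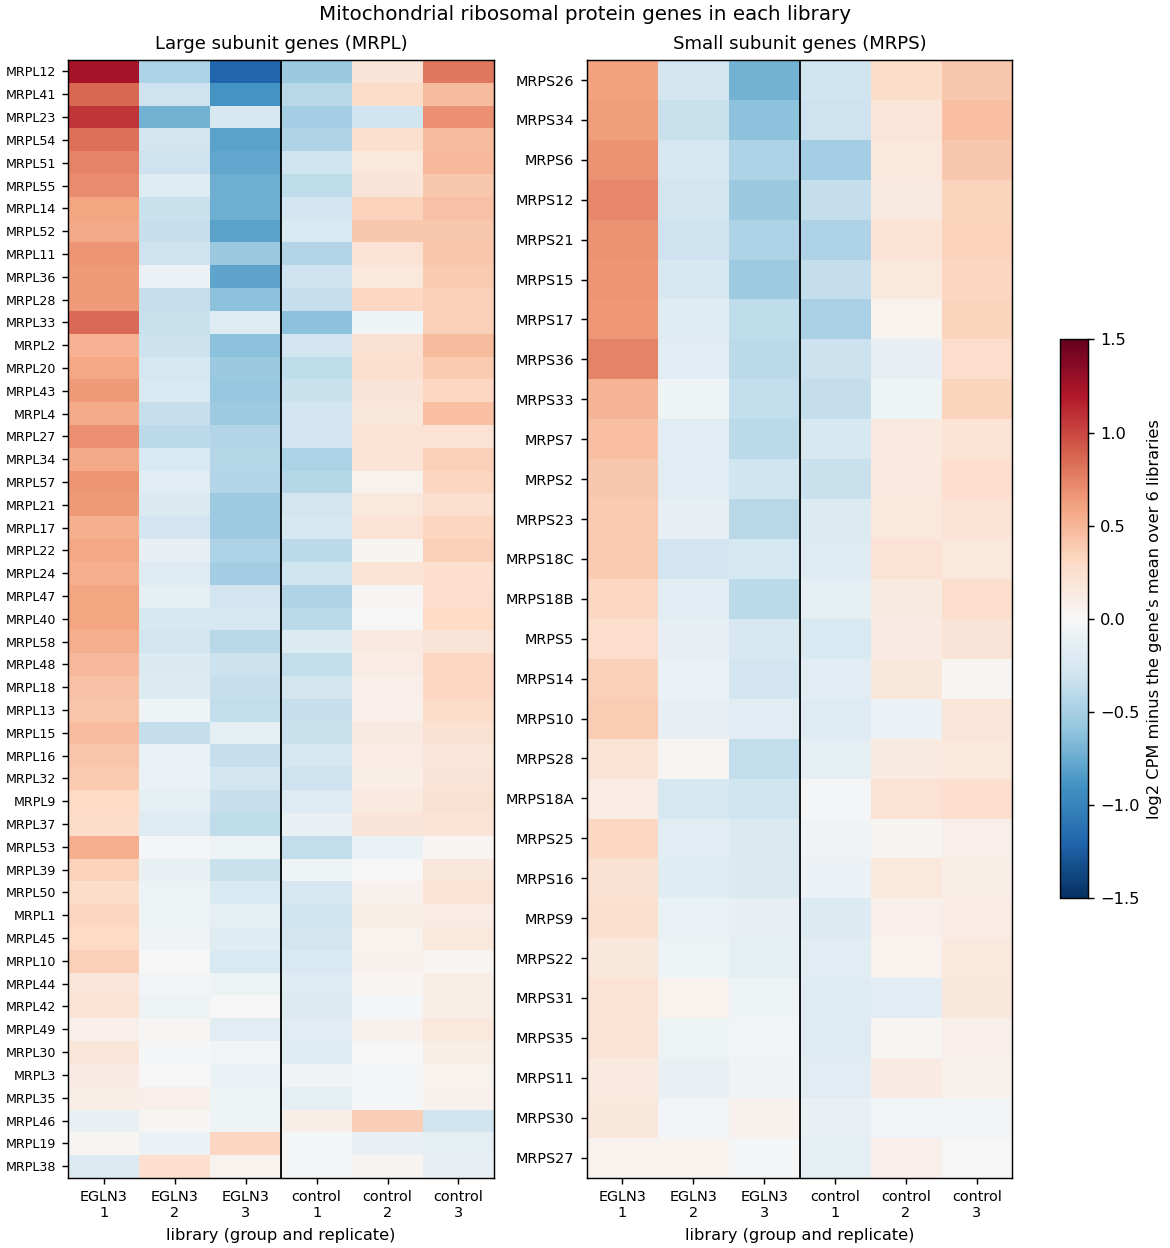
Deviation of each tested member from its own mean over 6 libraries (log2 CPM, red above and blue below), 49 MRPL left and 28 MRPS right, columns by group and replicate, rows ordered by the difference along the library axis. EGLN3 replicate 1 is the highest library for 71 of 77 members, while EGLN3 replicate 3 and control replicate 1 are mostly low.

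The size of this difference is given below as the fitted change in log2 CPM between the ends of the axis, EGLN3 replicate 1 minus EGLN3 replicate 3. Its median was 0.79 over the members. It was 0.92 for the large subunit genes (middle range 0.55 to 1.15) and 0.62 for the small subunit genes (0.42 to 1.04), so the ranges overlapped widely. By structure the medians were 0.88 for 51 large and 0.68 for 25 tested small subunit genes. For the 83 cytosolic ribosomal protein genes, which serve translation outside mitochondria, the median was 1.15, and 78 of them reached an r of 0.9. The members' median deviation in each library was 0.46, -0.17 and -0.35 (log2 CPM) with EGLN3, against -0.28, 0.13 and 0.24 in control, and that of the cytosolic genes was 0.64, -0.26 and -0.52 with EGLN3, against -0.35, 0.18 and 0.35 in control. Both sets of ribosomal protein genes ranked the 6 libraries in the same order.

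**Figure D3:**
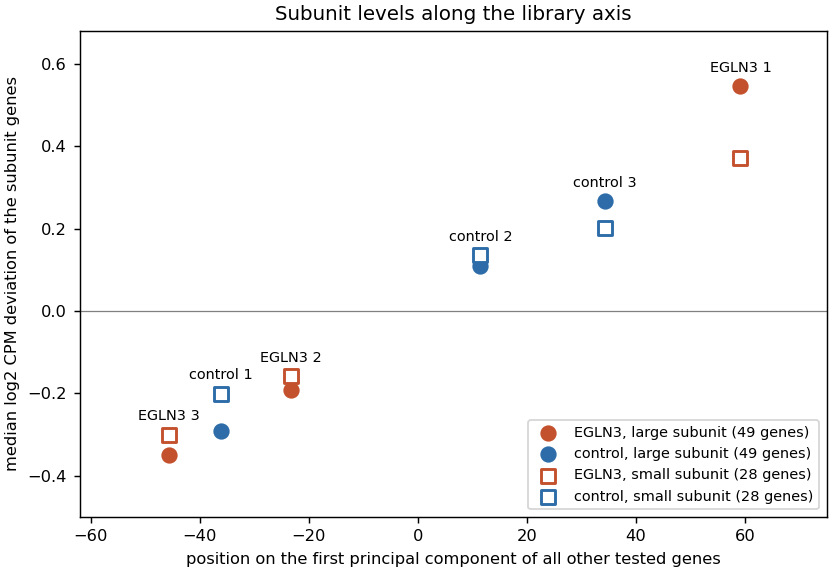
Median deviation of the large (filled circles, 49 genes) and small (open squares, 28 genes) subunit genes in log2 CPM against the library's position on the first principal component of all other tested genes, EGLN3 in orange and control in blue. The large subunit median lies between -0.35 at EGLN3 replicate 3 and 0.55 at EGLN3 replicate 1, and the small subunit median between -0.30 and 0.37.

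MRPL12 (chr17:81703357-81707526, plus strand) spanned the most. It encodes the protein of the flexible stalk that recruits translation factors, and it also binds the mitochondrial RNA polymerase. MRPL12 had 98.5, 29.6 and 18.0 CPM in EGLN3 libraries, against 27.9, 47.2 and 71.3 CPM in control libraries. The EGLN3 libraries held both the highest and the lowest value, and the log2 fold change was -0.003 ± 0.66 (SE). Its difference along the axis was 2.27. Without EGLN3 replicate 1 the log2 fold change of MRPL12 was -1.02 (edgeR adjusted p = 0.48). MRPL12 shares 68.2% of its exonic bases with AC139530.2 on the same strand, which had 0 counts in all 6 libraries. As for MRPS24, reads in the shared bases may have been dropped, so the level of MRPL12 is uncertain.

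MRPL41 (chr9:137551199-137552555), a mitochondria-specific large subunit protein, had 94.3, 41.8 and 27.7 CPM in EGLN3 libraries, against 38.6, 62.8 and 72.0 CPM in control libraries. MRPL23, whose bacterial homologue lines the mouth of the peptide exit tunnel, had 51.7, 15.0 and 20.7 CPM in EGLN3 libraries, against 17.2, 20.1 and 39.7 CPM in control libraries. Both were highest in EGLN3 replicate 1 and next highest in control replicate 3, with differences along the axis of 1.61 and 1.55. MRPL54 (1.53) and MRPL51 (1.39) came next.

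The least variable members were MRPL3, MRPL35 and MRPS27. MRPL3 (chr3:131462212-131502983, minus strand), a core protein of the large subunit with bacterial homologues, had 190.2, 174.4 and 162.7 CPM in EGLN3 libraries, against 169.1, 173.3 and 181.4 CPM in control libraries. MRPL35 had 51.3, 50.4 and 45.5 CPM in EGLN3 libraries, against 43.6, 46.9 and 50.1 CPM in control libraries. MRPS27 (chr5:72219409-72320646, minus strand), a pentatricopeptide repeat protein of the small subunit, had 129.7, 129.3 and 122.5 CPM in EGLN3 libraries, against 113.3, 131.8 and 124.5 CPM in control libraries. Their differences along the axis were 0.19, 0.17 and 0.11. For MRPL3 the log2 fold change was 0.01 ± 0.12 (SE).

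**Figure D4:**
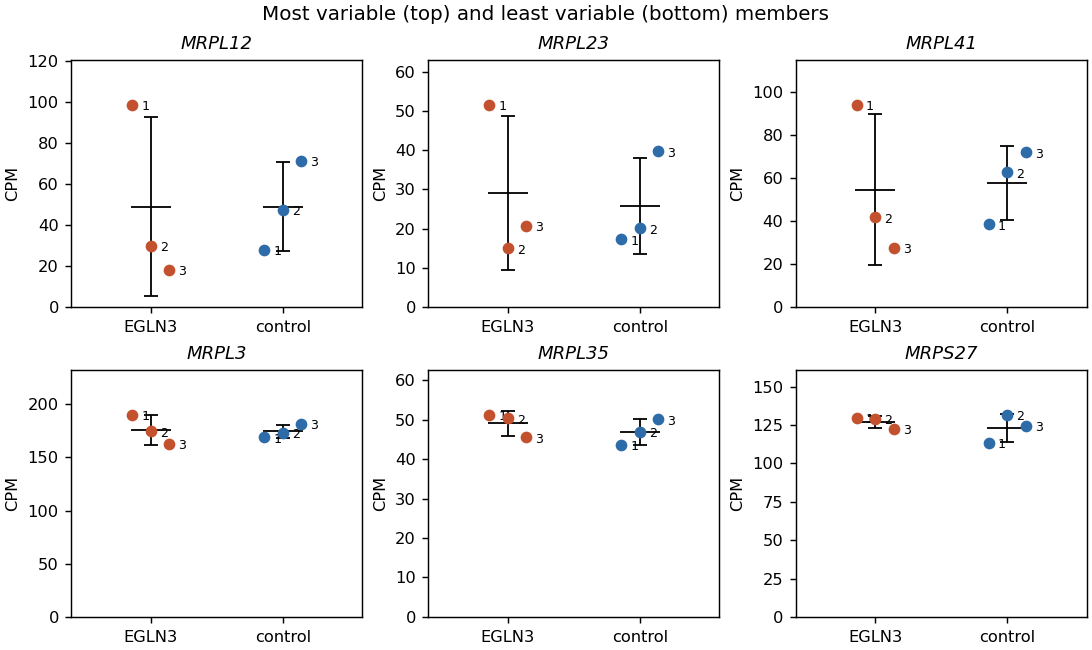
CPM of the 3 most variable members (MRPL12, MRPL23 and MRPL41, top) and the 3 least variable (MRPL3, MRPL35 and MRPS27, bottom) in EGLN3 (orange, left) and control (blue, right) libraries; numbers mark replicates, and bars give the mean and SD (n = 3). In the top row EGLN3 replicate 1 lies above all other libraries, and in the bottom row the 6 libraries lie close together.

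Bases before the RefSeq start site are shown from the extremes of this range, MRPL12 at one end and MRPL3 and MRPS27 at the other, since the members differ most there. No stretch is shown for MRPL23, MRPL41 or MRPL35, the other members at these ends. The variable end is thus represented by MRPL12 alone. They are RefSeq promoter sequences on GRCh38.p14, read on the gene's strand, from the 250 bases before the start and without bases in annotated protein-coding exons. The MRPL12 stretch is chr17:81703117-81703356, that of MRPL3 is chr3:131502984-131503221 and that of MRPS27 is chr5:72320262-72320366. RefSeq starts can differ from the gene bounds of the deposited table, and the MRPS27 stretch lies inside that gene's listed bounds. Capitals mark the letters CCGGAAG, the core that ETS factors such as GABP recognise.
MRPL12: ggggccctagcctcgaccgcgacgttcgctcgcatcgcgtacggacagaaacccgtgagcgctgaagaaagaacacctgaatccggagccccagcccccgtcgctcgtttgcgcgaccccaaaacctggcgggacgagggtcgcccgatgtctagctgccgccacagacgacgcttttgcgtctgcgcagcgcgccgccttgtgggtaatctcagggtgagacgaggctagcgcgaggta
MRPL3: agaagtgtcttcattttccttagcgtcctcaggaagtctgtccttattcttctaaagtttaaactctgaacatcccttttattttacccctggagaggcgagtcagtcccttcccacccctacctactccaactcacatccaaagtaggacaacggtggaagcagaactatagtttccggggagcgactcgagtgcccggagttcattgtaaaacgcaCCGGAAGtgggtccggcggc
MRPS27: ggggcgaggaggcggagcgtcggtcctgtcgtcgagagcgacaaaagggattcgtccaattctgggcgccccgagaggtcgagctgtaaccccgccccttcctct
Over the whole 250 bases the G and C content was 65.6% for MRPL12, 49.6% for MRPL3 and 61.2% for MRPS27. The ETS letters stood once in MRPL3 and were not found in the windows of MRPL12 and MRPS27.

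Promoters of 69 of the 78 members were matched by symbol. Searched on both strands, the ETS letters CCGGAAG were in 23 of 69 member promoters (33.3%), against 8.82% of all 27305 promoters and 15.7% of the promoters of tested genes. The YY1 letters AAGATGGC were in 5 member promoters (7.25%), against 1.37% of all promoters and 1.81% of those of tested genes. The NRF1 letters, 10 bases given in capitals in the last window below, were in 1 member promoter, that of MRPL17 (1.45%), against 1.13% of all promoters and 1.89% of those of tested genes. NRF1 and GABP are known regulators of nuclear genes for mitochondria, and YY1 is a zinc finger factor that binds many promoters of this class. An ETS match and a YY1 match can share the letters AAG, and 28 promoters held at least 1 of the 3 letter sets. Short windows around the YY1 and NRF1 letters, which are in capitals and can stand on either strand, were as follows.
MRPL32: cccgcgctccGCCATCTTtacccgaaga
MRPL36: cccccccgccGCCATCTTccttcctggc
MRPL47: gcaggatgtgGCCATCTTaagtgagggc
MRPL52: acccagattcAAGATGGCgacttcctgc
MRPS12: catggacgcaGCCATCTTggaccgggaa
MRPL17: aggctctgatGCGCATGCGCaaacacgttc
These are chr7:42932144-42932171 (plus), chr5:1799855-1799882 (minus), chr3:179604713-179604740 (minus), chr14:22829813-22829840 (plus), chr19:38930722-38930749 (plus) and chr11:6683402-6683431 (minus) on GRCh38.p14. The MRPL36 and MRPS12 windows lie inside the listed bounds of their genes. MRPL52 held the YY1 letters at a second place as well. The median difference along the axis was 0.88 for the 23 members with the ETS letters and 0.72 for 45 without, and 1.21 for the 5 with the YY1 letters and 0.73 for 63 without. Members with the ETS letters ranged from -0.29 for MRPL38 to 1.53 for MRPL54, so members that followed the axis and a member with a negative r both held a match.

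The difference along the axis also went with the build of the transcript. Across the 77 members, Spearman's rho with it was -0.47 for the length of the longest coding sequence, -0.41 for the deposited gene length, 0.53 for the GC content of the longest transcript and 0.37 for the mean log2 FPKM. Over all tested genes rho was -0.45 for gene length and 0.36 for GC content, so the signs were the same as among the members. These are across genes within the same 6 libraries, and genes are not independent replicates. The 39 members with a coding sequence of up to 603 bases had a median difference of 1.03, and the 38 longer ones 0.66. The 38 members above a GC content of 47.7% had 1.08, and the 39 at or below it 0.54. In both length classes the large subunit genes had the higher median, 1.09 against 0.71 among shorter and 0.73 against 0.50 among longer coding sequences. Median coding length was 594 bases for large and 609 bases for small subunit genes, while median GC content was 50.7% for large and 46.2% for small subunit genes. Whether length or GC content plays a part in the libraries' order was not tested.

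**Figure D5:**
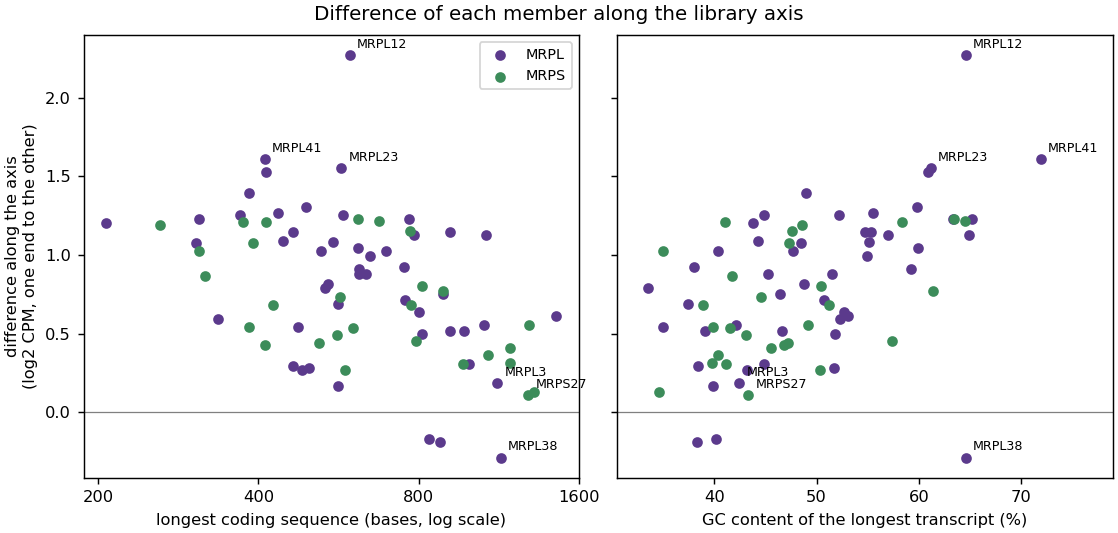
Difference of each tested member along the library axis (log2 CPM) against its longest coding sequence in bases (left, log scale) and the GC content of its longest transcript in percent (right), MRPL in purple and MRPS in green. Shorter and more GC-rich members tend to lie higher, with a rho of -0.47 on the left and 0.53 on the right, and MRPL12, MRPL41 and MRPL23 are the 3 highest.

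The members with a negative r were MRPL38, MRPL46 and MRPL19. MRPL38 had 4.62, 6.402 and 5.56 CPM in EGLN3 libraries, against 5.30, 5.49 and 4.90 CPM in control libraries, with an r of -0.72. It shares 41.1% of its exonic bases with other genes. MRPL46 had 11.4, 12.5 and 11.8 CPM in EGLN3 libraries, against 13.3, 16.0 and 9.98 CPM in control libraries, with an r of -0.29. MRPL19, whose values are given above, had an r of -0.44. All 3 changed little, by -0.29 (MRPL38), -0.17 (MRPL46) and -0.19 (MRPL19) along the axis.

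The proteins of the stalk and its base had unlike spreads. MRPL10, which anchors the MRPL12 stalk, had 82.1, 63.8 and 54.8 CPM in EGLN3 libraries, against 54.6, 66.7 and 65.4 CPM in control libraries. MRPL11, at the stalk base, had 124.8, 63.4 and 53.4 CPM in EGLN3 libraries, against 58.1, 91.7 and 104.9 CPM in control libraries. Along the axis MRPL10 differed by 0.50, MRPL11 by 1.25 and MRPL12 by 2.27. MRPL44, which carries an RNase III-like fold, spread less, with 42.5, 36.5 and 35.5 CPM in EGLN3 libraries, against 32.8, 38.2 and 40.2 CPM in control libraries. MRPL58 (ICT1), a peptidyl-tRNA hydrolase built into the large subunit, had 97.8, 55.1 and 50.1 CPM in EGLN3 libraries, against 58.1, 74.1 and 76.6 CPM in control libraries. In each of these genes EGLN3 replicate 1 was the highest library.

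In the small subunit MRPS12, a protein of the decoding centre, had 167.7, 83.5 and 68.7 CPM in EGLN3 libraries, against 79.2, 111.4 and 127.5 CPM in control libraries. MRPS7, which nucleates the head of the subunit in bacteria, had 211.1, 136.9 and 115.8 CPM in EGLN3 libraries, against 130.6, 170.3 and 177.8 CPM in control libraries. MRPS34 had 216.0, 111.0 and 91.2 CPM in EGLN3 libraries, against 113.3, 159.4 and 191.3 CPM in control libraries. All 3 put EGLN3 replicate 1 first, and their control libraries lay between the EGLN3 extremes. The homologues of bacterial S2 and S5 spread less. MRPS2 had 105.5, 70.5 and 64.3 CPM in EGLN3 libraries, against 63.0, 87.7 and 94.5 CPM in control libraries. MRPS5 had 81.5, 62.2 and 57.4 CPM in EGLN3 libraries, against 57.5, 74.0 and 77.6 CPM in control libraries. MRPS16 and MRPS22, genes in which variants are known to cause mitochondrial disease, were tighter still. MRPS16 had 128.9, 97.2 and 95.0 CPM in EGLN3 libraries, against 104.0, 123.6 and 117.8 CPM in control libraries. MRPS22 had 43.2, 36.3 and 34.6 CPM in EGLN3 libraries, against 34.3, 39.7 and 42.7 CPM in control libraries.

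Humans have a trio of MRPS18 paralogues of bacterial S18, which occupy different places in the ribosome. MRPS18B had 49.01, 35.2 and 29.7 CPM in EGLN3 libraries, against 35.4, 43.2 and 47.3 CPM in control libraries. MRPS18C had 32.3, 20.1 and 20.4 CPM in EGLN3 libraries, against 21.5, 28.6 and 27.4 CPM in control libraries. Their log2 fold changes were -0.14 ± 0.22 and -0.09 ± 0.23 (SE), against -0.29 ± 0.16 for MRPS18A, so all 3 lay within 2 SE of 0. MRPS18C shares 40.2% of its exonic bases with ABRAXAS1 on the opposite strand. MRPS36 had 33.0, 17.5 and 14.8 CPM in EGLN3 libraries, against 15.7, 17.9 and 23.6 CPM in control libraries, again with EGLN3 replicate 1 on top.

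Because the library axis carries most of the variance, the comparison of EGLN3 with control was also made with 1 surrogate variable, an estimated covariate for variation not set by the groups. In that edgeR fit 3 of 77 members passed the adjusted threshold, all lower with EGLN3, where 4.53% of all tested genes passed. They were MRPL14 (log2 fold change -0.23 ± 0.06 SE, adjusted p = 0.022), MRPS18A (-0.27 ± 0.08 SE, adjusted p = 0.046) and MRPL52 (-0.28 ± 0.08 SE, adjusted p = 0.047). The members' share called, 3 of 77, was near that of all genes. When trends on GC content and gene length were also removed library by library, 2 members passed, MRPL14 (-0.22, adjusted p = 0.04) and MRPL52 (-0.38, adjusted p = 0.02), where 0.967% of all tested genes did. Leaving out 1 library at a time with the surrogate variable, 0 members passed without EGLN3 replicate 1, EGLN3 replicate 3, control replicate 1 or control replicate 2. Without EGLN3 replicate 2 MRPL33 alone passed, and without control replicate 3 there were 5 (MRPL14, MRPL33, MRPL37, MRPL47 and MRPL52). These genes did not share a direction. With the surrogate variable and all 6 libraries, MRPL33 (log2 fold change 0.31) and MRPL47 (0.18) were higher with EGLN3. MRPL37 (-0.15) was lower there, as were MRPL14 and MRPL52. Over all tested genes the same fits called 338 genes without EGLN3 replicate 2 and 998 without control replicate 3, against 82 to 291 in the other 4. The filter left 16101 genes without EGLN3 replicate 2 and 16149 without control replicate 3. The fits that called members were thus those that called the most genes.

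The uncorrected values of these genes overlapped between groups. MRPL14 had 139.4, 73.2 and 55.5 CPM in EGLN3 libraries, against 75.8, 117.3 and 125.2 CPM in control libraries. MRPL52, a mitochondria-specific large subunit protein, had 42.5, 22.5 and 16.4 CPM in EGLN3 libraries, against 24.5, 37.8 and 37.9 CPM in control libraries. In both genes EGLN3 replicate 1 was the highest library and the other EGLN3 libraries were the lowest. Without EGLN3 replicate 1 and with no surrogate variable, the median log2 fold change of all members was -0.285, 9 of 78 were above 0 and 14 (17.9%) had an unadjusted p under 0.05 in edgeR, against 8.74% of all tested genes. The smallest adjusted p of a member there was 0.48. Leaving out EGLN3 replicate 2 or 3 put the median at 0.05 and 0.12. Without control replicate 1, 2 or 3 it was -0.155, 0.05 and 0.09, so the direction of the small shift turned with the library left out.

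The other genes of the pathway were taken as 91 genes of 6 classes, and 0 of 91 passed in edgeR. Their median log2 fold change was -0.013, with 38 above 0. The groups did not overlap in 4 genes higher and 4 genes lower with EGLN3, which is 8 of 91 against 2.64% and 3.62% of all tested genes in the 2 directions. Of 5 ribosomal proteins with other names, AURKAIP1, CHCHD1 and GADD45GIP1 differed along the axis by 1.47, 1.36 and 1.30, DAP3 by 0.52 and PTCD3 by -0.13. For example, AURKAIP1, a small subunit protein, had 296.7, 133.4 and 98.5 CPM in EGLN3 libraries, against 132.4, 199.6 and 232.7 CPM in control libraries. DAP3, a GTP-binding small subunit protein, had 180.4, 137.5 and 123.3 CPM in EGLN3 libraries, against 122.4, 147.7 and 153.3 CPM in control libraries. The 29 genes listed as assembly factors and the 16 translation factors followed the axis less, with median differences of 0.37 and 0.19. The first of these lists includes LYRM7 (-0.495), which serves complex III of the respiratory chain rather than the ribosome. The 22 genes of mitochondrial tRNA charging (aminoacyl-tRNA synthetases and the amidotransferase subunits QRSL1, GATB and GATC) had 0.07. The 9 genes of mitochondrial DNA transcription and replication had -0.09, with 2 positive, and the 10 transcriptional regulators had -0.20, with 3 positive.

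Some regulators and enzymes of the pathway separated the groups without passing the adjusted threshold, 4 higher and 4 lower of 91. Such separation was not particular to the pathway, since 2.64% of all tested genes lay higher and 3.62% lower in every EGLN3 library. GABPB1, a subunit of the ETS factor GABP whose letters are shown above, had 34.5, 35.3 and 35.0 CPM in EGLN3 libraries, against 29.03, 29.6 and 29.1 CPM in control libraries (log2 fold change 0.26 ± 0.11 SE, edgeR unadjusted p = 0.057, adjusted p = 1). VARS2, which charges mitochondrial tRNA with valine, had 25.3, 24.2 and 26.0 CPM in EGLN3 libraries, against 32.3, 29.7 and 29.8 CPM in control libraries (-0.28 ± 0.12 SE, edgeR unadjusted p = 0.051, adjusted p = 1). POLRMT, the mitochondrial RNA polymerase, had 82.3, 70.7 and 65.4 CPM in EGLN3 libraries, against 86.5, 97.0 and 86.1 CPM in control libraries (-0.30 ± 0.14 SE, edgeR unadjusted p = 0.068, adjusted p = 1). GABPB1 lay higher and VARS2 and POLRMT lower in all 3 EGLN3 libraries. The other GABP genes of the list, GABPA and GABPB2, overlapped between groups. Their log2 fold changes were 0.13 ± 0.24 and -0.01 ± 0.14 (SE), so the higher level held for GABPB1 alone. GTPBP8 and GTPBP10, GTPases of ribosome assembly, lay higher in all 3 EGLN3 libraries, with log2 fold changes of 0.28 ± 0.14 and 0.27 ± 0.13 (SE). The remaining genes whose groups did not overlap were MTERF1 (0.30), SARS2 (-0.37) and HARS2 (-0.11). With 1 surrogate variable, 4 of the 91 passed (4.4%), near the 4.53% of all tested genes. Among them were GABPB1, higher with EGLN3, and VARS2 and POLRMT, lower with EGLN3. With the GC and length trends 1 of the 91 passed (1.1%), near the 0.967% of all tested genes, and GABPB1, VARS2 and POLRMT did not.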

How the data were processed

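Bulk RNA sequencing gave 6 libraries of NCI-N87 cells, which the labels divide into 3 EGLN3 and 3 control libraries. The authors deposited raw gene counts and FPKM with gene lengths. HISAT2 2.0.5, featureCounts 1.5.0-p3, DESeq2 1.20.0 and the build hg38 are listed in the submitters' processing notes without their roles. Strand use in counting was not stated there. No 2 libraries of the same group agreed within sampling noise. The members and lists were chosen with earlier results of these data known.

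Counts were filtered (filterByExpr), scaled by TMM and tested across 15726 genes with edgeR 4.0.16 (R 4.3.3; quasi-likelihood, robust, no covariate), Benjamini-Hochberg adjusted at 0.05. The scripts were tested on simulated data. Log2 CPM used a prior count of 2. Exons, overlaps, coding length and GC content came from GENCODE 29, which gave a GC content to 99.96% of tested genes. Alternatives were DESeq2 1.42.0, RLE and upper-quartile scaling, no filter, 1 CPM in 3 libraries, protein-coding genes alone, limma 3.58.1 on log2(FPKM + 1) or log2(FPKM + 0.1) with a minimum of 0.5 FPKM or none, the replicate number as a block, 1 surrogate variable (sva 3.50.0), and each library left out. The fit with GC and length trends, the placing of genes by structure and the surrogate fit with libraries left out were added after seeing the data.

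Named members were the 3 of each subunit with the smallest p, the 2 highest and 2 lowest in FPKM of each subunit, the 3 most and 3 least variable with at least 10 CPM, the 3 with the lowest axis r, and genes chosen by role. Other genes were named after their values were seen, as were the promoters printed. Some genes of the lists are not reported here by name.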

Additional observations from a re-analysis of the deposited data

How the results depend on the processing

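The count of members called, 0, was 3 with 1 surrogate variable and 2 with the surrogate variable and GC and length trends, and was 0 under every other alternative fitted to all 6 libraries and, with no surrogate variable, with each library left out. With the surrogate variable and 1 library left out it ran from 0 to 5. For the 91 other pathway genes the count of 0 was 4 (4.4%) with 1 surrogate variable, against 4.53% of all tested genes. It was 1 (1.1%) with GC and length trends as well, against 0.967%. In the fits with no surrogate variable it stayed 0, and the cause was not tested. The members' median log2 fold change, -0.016, ranged from -0.285 to 0.12 when 1 library was left out, and the difference of the subunits' medians, -0.002, from -0.054 to 0.058. Along the axis, the count of members with a positive r ran from 74 to 76 and that with an r of at least 0.9 from 54 to 64. Of the single genes followed, EGLN3 lost its call under the block, both limma fits on log2(FPKM + 1) and when any library other than EGLN3 replicate 1 was left out.

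The labels do not say whether same-numbered libraries were handled together. Their deviations correlated negatively, at -0.793, -0.176 and -0.674 for replicates 1, 2 and 3, so the values showed no likeness by replicate number. With the replicate number as a block, 0 members and 0 pathway genes were called, the members' median log2 fold change was -0.052 and the subunit difference -0.019. The median SE of a member's log2 fold change was 0.25 in the reported fit and 0.063 with 1 surrogate variable on the same counts.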

Other observations

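Some members start close to another gene on the opposite strand. Of the 78, 29 had a protein-coding gene starting within 1000 bases on the other strand, 15 of them within 100 bases. The share over all genes was not computed, so this is not a trait particular to the members. Of these neighbours 28 were tested. MRPL46 and MRPS11 are each other's neighbour, so both count as member and as neighbour. Along the library axis (log2 CPM, EGLN3 replicate 1 end minus EGLN3 replicate 3 end) these members had a median difference of 0.87 and their neighbours 0.20. Of the neighbours 18 of 28 were positive, where 50% of all tested genes were. Some neighbours are mitochondrial genes themselves. MRPL36 and NDUFS6, a complex I subunit, differed by 1.23 and 1.72, and MRPL47 and NDUFB5, another complex I subunit, by 0.92 and 0.81. MRPL46 and MRPS11, a pair of members that start 34 bases apart, differed by -0.17 and 0.27. MRPL49 differed by 0.29 while FAU, which encodes a cytosolic ribosomal protein, differed by 1.23. MRPL51 differed by 1.39 while NCAPD2, a condensin subunit, differed by -0.42. MRPL51 shares 31.3% of its exonic bases with NCAPD2 on the opposite strand, so their counts may not be fully separate. A shared start region therefore went with like values in some pairs and with opposite signs in others.

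Exon sharing touched 41 members, and 13 tested members shared at least 20% of their exonic bases. Their median difference along the axis was 0.68, against 0.80 for the 64 others, and their median log2 fold change of EGLN3 over control was -0.04, against -0.01.

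Among the rows named after these genes but not protein-coding, MRPS30-DT, a row of the antisense biotype (MRPS30 shares 0% of its exonic bases with any other gene), had 97, 174 and 201 counts in EGLN3 libraries, against 178, 127 and 126 counts in control libraries. That is lowest in EGLN3 replicate 1, where MRPS30 itself was highest. The pseudogene MRPS31P5 had 4, 23 and 39 counts in EGLN3 libraries, against 32, 13 and 5 counts in control libraries. Another pseudogene, MRPL45P2, did not share this order. It had 82, 62 and 68 counts in EGLN3 libraries, against 70, 57 and 89 counts in control libraries. Control replicate 3 was its highest library and EGLN3 replicate 1 the next.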
